A study of Mus musculus with 4 samples.

Results

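The genes described here carry glucose into brain cells, break it down to pyruvate, exchange pyruvate with lactate and admit pyruvate to the mitochondrion. They were listed by symbol, with no threshold on a measured value, although earlier results of these data were known when the list was made. The 33 symbols matched 34 of the 21933 gene rows of the deposited matrices, because Aldoa has 2 neighbouring records. By role they comprised 8 genes of the hexokinase and phosphofructokinase steps, 9 from aldolase to pyruvate kinase, 5 lactate dehydrogenases and monocarboxylate transporters, 2 glucose transporters, 4 pyruvate dehydrogenase kinases, and 5 genes of pyruvate entry and the pyruvate dehydrogenase complex.

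Nuclei of the right cortex were sequenced one by one for RNA, in 2 Control and 2 CrT-KO libraries, each from 1 untreated animal. All 4 animals were adult males at postnatal day 100. CrT-KO males are hemizygous for a whole-body deletion of exons 5 to 7 of Slc6a8, the X-linked creatine transporter gene, and Control males are their wild-type littermates. Creatine buffers ATP through phosphocreatine, and the comparison asked whether genes of the other fast route to ATP, glycolysis, differed without creatine uptake. With 2 animals per genotype, the p-values below rest on the spread between very few animals.

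Glucose enters cells through GLUT transporters, of which Slc2a1 is best known at the blood-brain barrier and Slc2a3 in neurons. Hexokinase traps it, phosphofructokinase commits it to glycolysis, and the steps from aldolase to pyruvate kinase yield pyruvate and ATP. Lactate dehydrogenase interconverts pyruvate and lactate, monocarboxylate transporters move both across membranes, and the mitochondrial pyruvate carrier (Mpc1 and Mpc2) with the pyruvate dehydrogenase complex (Pdha1, Pdhb, Dlat) sends pyruvate into oxidation, unless a pyruvate dehydrogenase kinase (Pdk1 to Pdk4) switches the complex off. In brain, astrocytes are widely described as glycolytic and lactate-exporting, and parvalbumin (PV) interneurons as heavy users of mitochondrial oxidation.

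The 4 libraries held 35694 nuclei and between 51507483 and 65240843 unique molecular identifiers (UMIs), with a median of 5548 to 6700 per nucleus. After doublets were removed, 34458 nuclei remained, and 31624 fell in 7 populations named by marker genes: 15473 excitatory-like, 7406 inhibitory-like, 5121 oligodendrocyte-like, 660 oligodendrocyte precursor-like (OPC), 2232 microglia-like, 488 astrocyte-like (57 of them in Control 1) and 244 endothelial- or pericyte-like. Inhibitory nuclei held 406 LAMP5-like, 739 VIP-like, 1080 parvalbumin (PV)-like and 1091 somatostatin (SST)-like nuclei, and also 2525 nuclei with markers of striatal projection neurons (MSN-like), although the tissue was labelled cortex. The other 1565 lay in 9 subclusters without a name, among them 305 and 94 nuclei with the vesicular glutamate transporter gene Slc17a6 among their leading genes and 175 with Slc17a7, and they stay in the inhibitory sums. The microglial population included a cluster of 88 nuclei led by the macrophage genes Mrc1 and F13a1. The endothelial and pericyte population joined a cluster of 78 nuclei led by Flt1 and Mecom with a cluster of 166 led by Slc6a20a and Atp13a5. Both were summed together, so its values are not those of a single cell type. The short names are used below. Of 35598 distinct barcodes, 96 occurred in more than 1 library. Slc6a8, the deleted gene, had 7.09 and 6.01 CPM (UMIs scaled to all UMIs of the same nuclei) over the named nuclei of the Control libraries and 1.68 and 1.64 in the CrT-KO libraries (log2 fold change -1.93 ± 0.16 SE, adjusted p = 0.0128), and the libraries did not overlap. Free RNA was gauged by 3 genes of excitatory neurons (Slc17a7, Sv2b and Neurod6). Their CPM, as a share of that in excitatory nuclei, ran from 10.9% to 41.5% in oligodendrocytes, 5.41% to 16.7% in OPCs, 14.9% to 31.2% in microglia, 7.28% to 19.4% in astrocytes and 37.5% to 55.9% in endothelial cells and pericytes. A gene whose share of the excitatory level lies within or below that range is not read here as expressed in the population. In oligodendrocytes the upper end came from the sparsely counted Neurod6 (5.84 CPM there), while Slc17a7 stood at 20.8% and Sv2b at 10.9%. Neurod6 also set the upper end in OPCs and astrocytes (2.35 and 2.73 CPM).

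The promoter windows of 5 genes are shown because these genes carry calls in the comparisons that follow. Hk2 was called higher in microglia, Slc2a1 in endothelial cells and pericytes, and Aldoc and Pdk4 in astrocytes than in excitatory neurons, and Ldhb was called higher in PV than in SST interneurons. Each is 300 bases of GRCm38.p6 from RefSeq, from 250 before to 50 after the gene's start, 5′ to 3′ on the gene's strand. Capitals mark the letters ACGTG on either strand, a form of the core of the hypoxia response element, which also lies within the E-box CACGTG. The form GCGTG was not searched for and is not marked. The windows are chr6:82774405-82774704 (minus strand) for Hk2, chr4:119108495-119108794 (plus) for Slc2a1, chr11:78322823-78323122 (plus) for Aldoc, chr6:5496229-5496528 (minus) for Pdk4 and chr6:142507908-142508207 (minus) for Ldhb.
Hk2: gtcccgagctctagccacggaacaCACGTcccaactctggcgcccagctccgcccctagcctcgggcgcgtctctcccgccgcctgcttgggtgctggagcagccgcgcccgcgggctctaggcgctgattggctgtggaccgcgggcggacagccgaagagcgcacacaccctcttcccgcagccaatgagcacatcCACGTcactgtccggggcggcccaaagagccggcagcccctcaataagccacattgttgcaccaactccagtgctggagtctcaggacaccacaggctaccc
Slc2a1: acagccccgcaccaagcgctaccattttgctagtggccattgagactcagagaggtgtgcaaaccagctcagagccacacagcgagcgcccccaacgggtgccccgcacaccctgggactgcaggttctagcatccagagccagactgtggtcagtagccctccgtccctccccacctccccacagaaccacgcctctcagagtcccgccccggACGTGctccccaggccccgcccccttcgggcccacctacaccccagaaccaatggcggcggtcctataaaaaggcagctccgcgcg
Aldoc: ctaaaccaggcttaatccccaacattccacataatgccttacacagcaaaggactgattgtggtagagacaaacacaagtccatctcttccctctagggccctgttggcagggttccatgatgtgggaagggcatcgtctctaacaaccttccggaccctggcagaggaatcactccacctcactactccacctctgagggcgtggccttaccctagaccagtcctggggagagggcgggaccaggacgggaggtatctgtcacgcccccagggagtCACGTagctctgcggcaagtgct
Pdk4: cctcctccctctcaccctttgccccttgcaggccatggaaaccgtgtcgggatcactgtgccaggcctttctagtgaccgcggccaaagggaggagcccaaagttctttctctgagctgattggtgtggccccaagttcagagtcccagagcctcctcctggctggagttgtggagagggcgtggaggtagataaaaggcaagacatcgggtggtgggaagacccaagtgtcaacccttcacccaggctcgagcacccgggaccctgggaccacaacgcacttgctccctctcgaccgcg
Ldhb: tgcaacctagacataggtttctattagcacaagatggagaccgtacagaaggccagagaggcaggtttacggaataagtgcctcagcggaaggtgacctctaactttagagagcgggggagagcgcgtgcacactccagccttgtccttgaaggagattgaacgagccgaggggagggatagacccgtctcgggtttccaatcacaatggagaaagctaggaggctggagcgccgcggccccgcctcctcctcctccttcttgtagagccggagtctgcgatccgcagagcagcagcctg
Hk2 held 2 matches to ACGTG, Slc2a1 and Aldoc 1 each, and Pdk4 and Ldhb 0. Of the 31 genes with a window in the RefSeq table, 14 (45.2%) held a match, against 19.7% of 32544 windows of all genes. Each of the 31 was counted by 1 window, nearest its annotated start, whereas the windows of all genes can include several per gene. The genes' windows were also richer in G and C (61.9% against 53.9%), and the counts were not adjusted for that. CACGTG was in 4 of 31 (12.9%), against 7.17% of all windows. A match is a run of letters in a window and says nothing here of binding.

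Across populations, the 34 rows together took a small share of all UMIs. The share was 0.112%, 0.11%, 0.109% and 0.105% in the excitatory nuclei of Control 1, Control 2, CrT-KO 1 and CrT-KO 2. Over the 4 libraries it averaged 0.0812% ± 0.00685 (SD) in OPCs, the lowest population, and 0.156% ± 0.011 in microglia, the highest. Libraries of these populations did not overlap (0.075% to 0.0878% in OPCs and 0.143% to 0.168% in microglia). Which genes made up that share differed strongly. Nuclear RNA is largely unspliced, so long genes collect more UMIs, and levels are compared between genes only per kilobase of gene length. Gapdh, a housekeeping gene of the glyceraldehyde phosphate step, had a mean of 1.02 CPM in excitatory nuclei. In all, 76 other annotated genes, 72 of them pseudogenes, share near-identical sequence with it, so its level here is uncertain. Of the 34 rows, 12 share such sequence with another annotated gene, among them Pgam1, Eno1, Ldhb, Pkm and Pdk4. Another counted gene overlaps 8 rows, among them Pfkp, Pfkm and Tpi1. The effect on their levels was not tested.

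**Figure D1:**
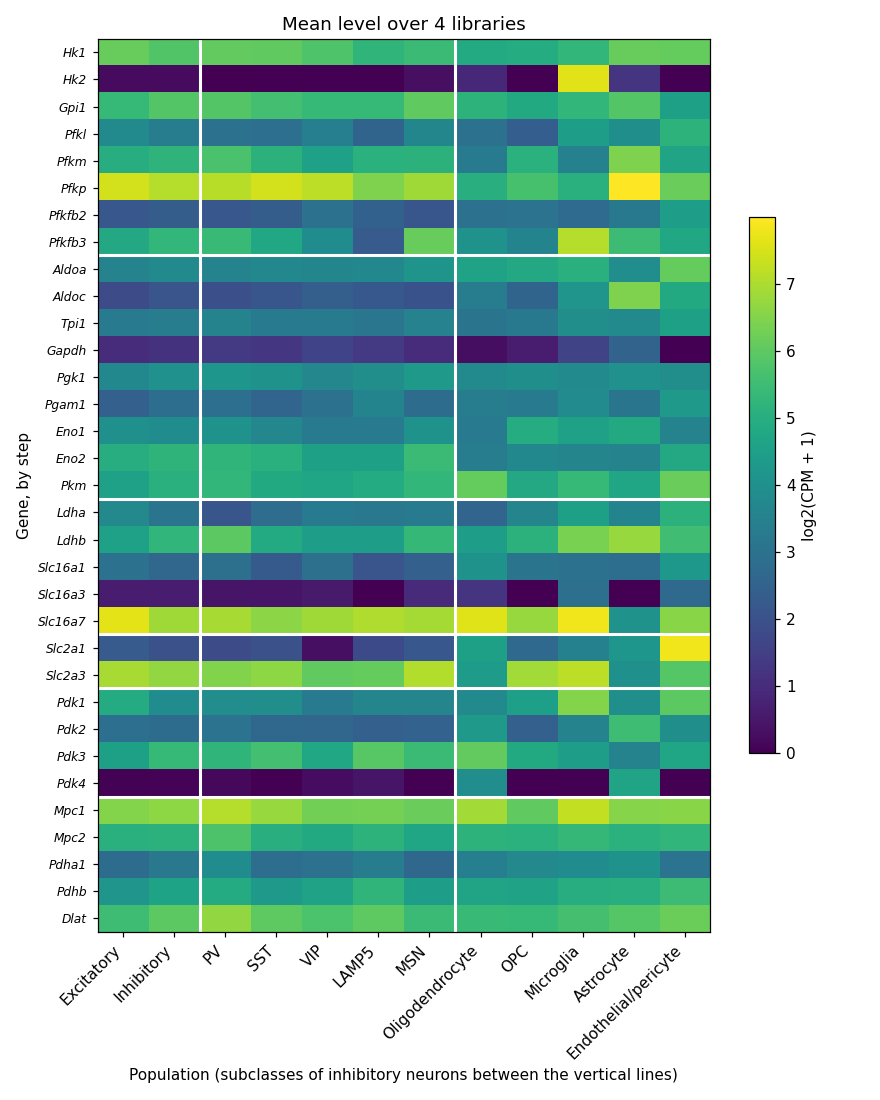
Colour gives log2(CPM + 1), the mean of 4 libraries, for each of 33 genes (rows, grouped by step with white lines) in each population (columns, interneuron and MSN subclasses between the vertical lines). Hk2 is bright in microglia alone, Slc2a1 in endothelial cells and pericytes, and Pdk4 is dark outside oligodendrocytes and astrocytes.

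Each other population was compared with excitatory neurons over 9038 genes, with the library as a block, and a call needed an adjusted p under 0.1 and at least a 2-fold difference. Of the members, 28 were tested, and Gapdh, Pdha1, Pfkfb2, Pgam1, Slc16a3 and the second Aldoa record fell below the count filter. The fitted log2 differences were scaled so that most genes do not differ (TMM factors). Without that scaling the median difference of all genes lay 0.17 to 0.73 log2 higher, depending on the population, and values are reported relative to it. The sign changed for 3 to 7 of the 28 members in each of the 6 comparisons, but for none of the members called.

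Glucose uptake genes divided the populations. Slc2a1 (GLUT1) had 209, 242, 184 and 265 CPM in the endothelial cells and pericytes of Control 1, Control 2, CrT-KO 1 and CrT-KO 2, and 4.54, 4.55, 3.59 and 2.97 CPM in excitatory neurons. The lowest vascular library was far above the highest neuronal one (log2 difference 5.06 ± 0.26 SE, adjusted p = 5.48e-23). It was also called higher in oligodendrocytes (22.5 CPM, log2 difference 2.15 ± 0.17) and in astrocytes (17.4 CPM, 1.59 ± 0.42). Slc2a3 (GLUT3) had 120, 123, 132 and 116 CPM in excitatory neurons, 117 ± 14.6 CPM (SD) in OPCs and 147 ± 34.3 CPM in microglia, and it was called in neither. In microglia the direction depended on scaling, with more CPM than in excitatory neurons but a fitted log2 difference of -0.42 ± 0.09. In oligodendrocytes it stood at 19.9 CPM and in astrocytes at 15 CPM, 16.2% and 12.2% of the excitatory level and within the free-RNA range of both populations. Per kilobase, Slc2a3 exceeded Slc2a1 in excitatory neurons (1.66 ± 0.09 against 0.134 ± 0.026 CPM per kb, SD), whereas Slc2a1 exceeded Slc2a3 in endothelial cells and pericytes (7.7 ± 1.22 against 0.787 ± 0.169).

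**Figure D2:**
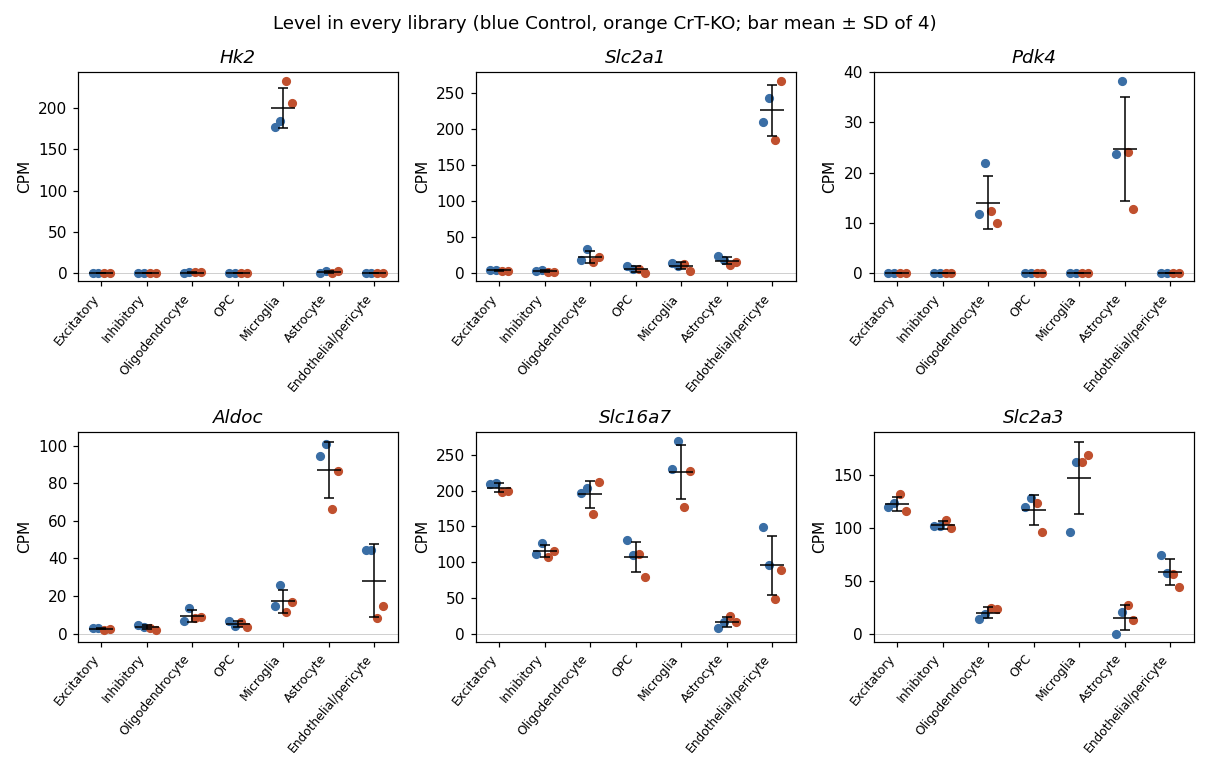
Points are the CPM of each library (blue Control, orange CrT-KO) for 6 genes in the 7 populations, and the bar is the mean ± SD of 4 libraries. Hk2 lies between 178 and 232 CPM in microglia and near 0 elsewhere, and Slc16a7 is near 200 CPM in excitatory neurons and oligodendrocytes but at most 24 CPM in astrocytes.

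Among the kinases of the upper pathway, Hk2 separated microglia from all other nuclei. Hk2, an inducible hexokinase bound to mitochondria, had 178, 185, 232 and 206 CPM in microglia (460 UMIs in all) and 0.187 CPM on average in excitatory neurons (25 UMIs). The difference was 9.26 ± 0.20 SE on the log2 scale (adjusted p = 1.19e-36). It had 0 UMIs in OPCs and in endothelial cells and pericytes, where 3 counts over the 4 libraries, the limit a count of 0 allows for counting error, would be 1.69 and 7.21 CPM, and 0 in PV, SST, VIP and LAMP5 nuclei. A call in oligodendrocytes (log2 difference 1.88 ± 0.73, adjusted p = 0.0183) rested on 7 UMIs, 0 of them in Control 1, and the libraries overlapped those of excitatory neurons. It was lost without Control 2 (log2 difference 1.32, adjusted p = 0.193). Hk1, the housekeeping hexokinase, was in contrast lower in microglia (35.5, 32.1, 39.3 and 46 CPM) than in excitatory neurons (67.5, 69.2, 72.2 and 66.9 CPM; log2 difference -1.56 ± 0.14), and lower in oligodendrocytes and OPCs too. Per kilobase, Hk2 reached 4.05 ± 0.50 and Hk1 0.344 ± 0.053 in microglia, so Hk2 held 92.2% of their sum there and 0.604% in excitatory neurons.

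The phosphofructokinase genes differed among populations by subunit. Pfkp, the platelet-type subunit, had 253, 269, 234 and 263 CPM in astrocytes, above the 190, 172, 172 and 167 CPM of excitatory neurons, but the fitted log2 difference of 0.11 ± 0.11 was not called. It was called lower in oligodendrocytes (31.2 CPM) and microglia (32.6 CPM), at 17.8% and 18.6% of the excitatory level, within the free-RNA range. Pfkm, the muscle-type subunit, was called higher in astrocytes (71, 89.7, 105 and 83.5 CPM against 30.6, 31, 29.6 and 31.3 in excitatory neurons; log2 difference 1.09 ± 0.17) and lower in oligodendrocytes (8.6 CPM, -2.22 ± 0.15) and microglia (10.6 CPM, -2.24 ± 0.23). Pfkl, the liver-type subunit, formed 55.1% of the 3 subunits per kilobase in microglia and 14.6% in excitatory neurons. Pfkfb3, which makes the phosphofructokinase activator fructose 2,6-bisphosphate, had 140, 115, 141 and 147 CPM in microglia against 30, 29.2, 26.2 and 24.4 CPM in excitatory neurons (log2 difference 1.60 ± 0.12), and was called lower in OPCs (11.2 CPM) and oligodendrocytes (16 CPM). The lower calls in OPCs were led by Pfkp (51.3, 35.9, 60.9 and 52.8 CPM; log2 difference -2.12 ± 0.14) and Pfkl (4.22 CPM from 8 UMIs; -1.84 ± 0.45, with ranges that overlapped). Those in endothelial cells and pericytes were led by Pfkp (70.6 CPM, -2.05 ± 0.22), Slc16a7 (95.3 CPM, -1.94 ± 0.21) and Slc2a3 (58.1 CPM, -1.84 ± 0.26), whose shares of the excitatory level, 40.3%, 46.6% and 47.3%, lay within the free-RNA range. Within inhibitory nuclei the mean of Pfkfb3 ran from 3.96 CPM in LAMP5 to 69.3 CPM in MSN nuclei.

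In the lower pathway, the aldolases and enolases had different bearers. Aldoc, the brain aldolase long used as an astrocyte and Purkinje cell marker, had 94.7, 101, 66.1 and 86.7 CPM in astrocytes and 2.88, 3.05, 2.11 and 2.39 CPM in excitatory neurons (log2 difference 4.59 ± 0.23, adjusted p = 5.3e-24). It was also called higher in endothelial cells and pericytes, microglia and oligodendrocytes, at 28, 17.2 and 9.38 CPM. Aldoa, the widespread aldolase, was higher in endothelial cells and pericytes (119, 57.4, 64.1 and 29.5 CPM; log2 difference 1.83 ± 0.35) and, just past the threshold, in OPCs (log2 difference 1.00 ± 0.25), where without Control 1 the difference was 0.72. Endothelial cells and pericytes held 67074 to 156717 UMIs of all genes per library, so their Aldoa and Aldoc calls rest on few UMIs. Aldoc made up 87.6% of the 2 aldolases per kilobase in astrocytes and 21.6% in excitatory neurons. Eno2, the neuronal enolase, was lower than in excitatory neurons in oligodendrocytes, OPCs, microglia and astrocytes, at 9.51 to 12.2 CPM against 30.8. The mean of Eno1 exceeded that of Eno2 per kilobase in OPCs, microglia and astrocytes (61% to 67.2% of their sum) and not in excitatory neurons (27.9%). In each of OPCs, microglia and astrocytes the library ranges of Eno1 and Eno2 overlapped (in astrocytes 0.649 to 3.46 and 0.334 to 2.19 CPM per kb). Pkm, pyruvate kinase of muscle and brain, was the other gene of these steps called higher in oligodendrocytes, at 73.4, 76.3, 67.3 and 52.1 CPM against 25, 22.2, 24.1 and 20.9 in excitatory neurons (log2 difference 1.17 ± 0.09).

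Among lactate genes, Ldhb, whose subunit favours lactate use, had its highest mean CPM in astrocytes. It had 111, 98.7, 111 and 112 CPM there, 71.1, 99.4, 81.8 and 82.8 CPM in microglia, and 24.1, 22.8, 21.6 and 22.6 CPM in excitatory neurons (log2 differences 1.77 ± 0.17 and 1.20 ± 0.14). Ldha, whose subunit favours lactate production, was called lower in oligodendrocytes (5.16 CPM against 12.6; -1.66 ± 0.21), at 41% of the excitatory level and within the free-RNA range, and was called in no other population. Per kilobase Ldhb was 88.6% of the sum of the 2 means in astrocytes and 59.1% in excitatory neurons. In endothelial cells and pericytes the 2 genes did not differ beyond their spread (Ldhb 2.56 ± 2.04 and Ldha 2.43 ± 0.39 CPM per kb, SD), and 1 library there had no UMI of Ldhb. Slc16a7 (MCT2), the high-affinity monocarboxylate transporter known from neurons, had 209, 211, 198 and 200 CPM in excitatory neurons, and the ranges of oligodendrocytes (168 to 212 CPM) and microglia (177 to 269 CPM) overlapped that. CPM carries no TMM factor, and the factors shifted the median difference of all genes by -0.39 log2 in oligodendrocytes and -0.7 in microglia. In the fit Slc16a7 was called at 2-fold in neither. Without a minimum fold, 1 of the 4 lactate genes tested was called higher and 3 lower in oligodendrocytes, Slc16a7 among the lower. In microglia 1 was called higher and 2 lower. In astrocytes it had 7.89, 15.7, 24 and 16.1 CPM (21 UMIs), 7.79% of the excitatory level and within the free-RNA range (log2 difference -4.03 ± 0.21). Slc16a1 (MCT1) had means from 3.34 CPM in LAMP5 nuclei to 18.2 CPM in endothelial cells and pericytes and was called at 2-fold in no population. Slc16a3 (MCT4) had 0 UMIs in astrocytes, where 3 counts would be 2.47 CPM, and its highest mean was 6.66 CPM, in microglia.

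Of the pyruvate dehydrogenase kinases, Pdk4, a starvation-induced isoform, was counted mainly in oligodendrocytes and astrocytes. It had 11.8, 21.9, 12.3 and 10.1 CPM in oligodendrocytes (108 UMIs) and 23.7, 38.1, 24 and 12.8 CPM in astrocytes (32 UMIs), against 6 UMIs over all excitatory nuclei (log2 differences 7.47 ± 0.37 and 8.20 ± 0.57). No UMI was counted in OPCs, in microglia or in endothelial cells and pericytes, which allows up to 1.69, 1.31 and 7.21 CPM. SST and MSN nuclei also had 0. Pdk2 was called higher in the same populations (44.3 and 19 CPM against 6.53; log2 differences 2.37 ± 0.26 in astrocytes and 1.14 ± 0.16 in oligodendrocytes). Pdk3 was called higher in oligodendrocytes (65.9 CPM against 22.4) and lower in astrocytes (10.9 CPM). Pdk1, a hypoxia-inducible isoform, was the single member called between inhibitory and excitatory neurons, at 14.2, 13, 14.7 and 13.3 CPM against 31.4, 28.8, 27.7 and 29.9 (log2 difference -1.25 ± 0.06). Its means in the 5 named inhibitory subclasses ran from 8.59 CPM in VIP to 14.5 CPM in SST nuclei. Of the pyruvate carrier and dehydrogenase genes, none of the 4 tested was called at 2-fold in any of the 6 comparisons with excitatory neurons.

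In counts, 7 members were called higher and 10 lower in oligodendrocytes (16.7% and 24.4% of all genes tested were called in these directions), 6 and 5 in astrocytes (17.3% and 21.8%), 4 and 4 in microglia (20.3% and 26.6%), 3 and 5 in endothelial cells and pericytes (15.6% and 19.9%), 1 and 6 in OPCs (14.3% and 15.9%) and 0 and 1 in inhibitory neurons (7% and 5.61%). With 28 members tested, the lower calls made up 35.7% in oligodendrocytes and 14.3% in microglia. The gaps from their background shares amounted to few genes and were not tested. Without TMM factors 7 rather than 10 members were called lower in oligodendrocytes, and 3 rather than 4 in microglia. Without a minimum fold, 8 members were called higher and 12 lower in inhibitory neurons (29.7% and 33.7% of all genes), 2 and 11 in OPCs (26.4% and 32.5%), 7 and 12 in microglia (37.1% and 40.3%), 9 and 16 in oligodendrocytes (38.9% and 41.4%), 7 and 7 in astrocytes (28.1% and 33.9%) and 4 and 8 in endothelial cells and pericytes (19.5% and 29.4%). The counts at 2-fold moved with scaling: without TMM factors 10 rather than 3 members were called higher in endothelial cells and pericytes and 7 rather than 4 in microglia. Lower calls lost without the factors were Gpi1 (glucose-6-phosphate isomerase) and Pfkm in endothelial cells and pericytes, Hk1 in microglia, Pfkfb3, Pfkl and Eno1 in oligodendrocytes, Slc16a7 in OPCs and Pdk1 in astrocytes. Of the lower calls, 5 of 10 in oligodendrocytes (Slc2a3, Pfkp, Pfkm, Eno2 and Ldha), 3 of 5 in endothelial cells and pericytes, 2 of 5 in astrocytes, 1 of 4 in microglia and 0 of 6 in OPCs had a share of the excitatory level within the free-RNA range. In oligodendrocytes Pfkm (28.1%), Eno2 (30.9%) and Ldha (41%) exceeded the shares of Slc17a7 and Sv2b and fell within the range by Neurod6 alone. Markers of excitatory neurons summed to 13.4% to 41.6% of their own level in the other 6 populations, and the part of such RNA in the lower calls was not tested.

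PV and SST interneurons, the fast-spiking and the dendrite-targeting subclasses of cortical interneurons, were compared with each other. Of 27 members tested, Ldhb and Pdha1 were called higher in PV (337 of 9924 genes, 3.4%, were called higher) and 0 lower (6.04%). Ldhb had 53.1, 63.3, 67.3 and 65.8 CPM in PV nuclei and 30.9, 32, 24.2 and 27.8 CPM in SST nuclei (log2 difference 1.10 ± 0.12, adjusted p = 2.31e-10). Pdha1, the catalytic subunit of pyruvate dehydrogenase, had 12.4, 11.8, 15.7 and 15.5 CPM against 10.5, 5.25, 6.64 and 3.4 (1.07 ± 0.24, adjusted p = 0.00056); this gene overlaps Map3k15 on the opposite strand. In neither gene did the libraries overlap. From the Control libraries alone neither passed both conditions (Ldhb 0.86, adjusted p = 8.52e-05; Pdha1 0.60, adjusted p = 0.283), and leaving out CrT-KO 1 or CrT-KO 2 left 1 of them called.

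Without the 2-fold condition, 11 of the 27 members were higher in PV (17.5% of all genes) and 3 lower (17.2%). All 5 genes of pyruvate entry and the dehydrogenase complex were among the 11. Dlat, the acetyltransferase subunit, had 101, 100.3, 97.7 and 111 CPM in PV and 62.4, 66.1, 61.2 and 65.2 CPM in SST nuclei (log2 difference 0.66 ± 0.11, adjusted p = 3.12e-06). Mpc2 had 53.1, 52, 53.9 and 56.2 CPM against 33, 32.5, 35.6 and 27.8 (0.71 ± 0.12, adjusted p = 6.53e-06). Pdhb (0.57 ± 0.17, adjusted p = 0.00802) and Mpc1 (0.31 ± 0.08, adjusted p = 0.00174) followed, again without overlap between the libraries. Pfkfb3, Pkm and Slc16a7, also without overlap, and Pfkm and Slc16a1, whose libraries overlapped between the subclasses, completed the list. Ldha (-0.85 ± 0.33, adjusted p = 0.0489), Pdk3 (-0.42 ± 0.13) and Pfkp (-0.34 ± 0.08) were lower, and Ldha and Pfkp overlapped between the subclasses. Ldhb was 93.6% of the 2 dehydrogenases per kilobase in PV and 78.8% in SST nuclei.

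**Figure D3:**
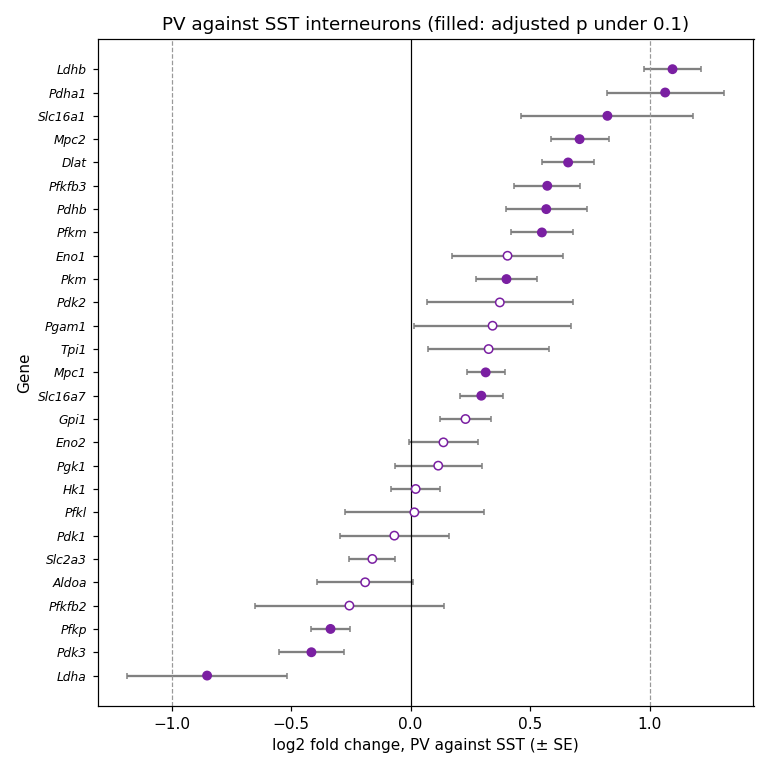
Each point is the log2 fold change of a gene in PV against SST nuclei with its SE, filled where the adjusted p was under 0.1, and the dashed lines mark a 2-fold difference. Ldhb (1.10) and Pdha1 (1.07) lie beyond the line, and Ldha (-0.85) lies farthest to the left.

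Between genotypes, no member was called at an adjusted p under 0.1 in any of the 7 populations, the 5 inhibitory subclasses or all named nuclei together. DESeq2 called 0 as well. Excitatory neurons allowed a test of 32 members, inhibitory neurons and oligodendrocytes of 30 each, microglia of 20, OPCs of 16, astrocytes of 13, and endothelial cells and pericytes of 1. Calls were rare among all genes. Excitatory neurons had 22 of 13834 (0.159%), inhibitory neurons 10 of 12740 (0.0785%) and oligodendrocytes 3 of 9145 (0.0328%), with 3 of 7289 in microglia (0.0412%), 2 of 5813 in OPCs (0.0344%), 1 of 5026 in astrocytes (0.0199%) and 0 of 2381 in endothelial cells and pericytes (0%). Among the subclasses, 0.112% of genes were called in PV nuclei (25 members tested), 0.0224% in SST (24), 0% in VIP (19), 0.0486% in LAMP5 (15) and 0.04% in MSN nuclei (29), and over all named nuclei 0.0201% (34). An unadjusted p under 0.05 was found for 2 members in excitatory neurons (8.65% of all genes), 5 in inhibitory neurons (5.25%), 2 in OPCs (5.25%), 3 in oligodendrocytes (6.57%) and none in microglia (5.68%), astrocytes (4.5%), endothelial cells and pericytes (2.65%), PV (5.51%), SST (5.25%) or VIP nuclei (4.4%). Dlat alone had one in LAMP5 (5.03%) and MSN nuclei (6.01%), and 4 members did over all named nuclei (6.75%). Those in excitatory neurons, inhibitory neurons, oligodendrocytes and all named nuclei had estimates below 0 in CrT-KO, Dlat had estimates above 0, and in OPCs Ldhb lay below and Pfkm above.

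The median log2 fold change over the members was -0.02 in excitatory neurons, -0.05 in inhibitory neurons, -0.08 in oligodendrocytes, -0.08 in microglia, -0.04 in OPCs and 0.05 in astrocytes, beside medians over all genes of -0.005, -0.002, -0.003, -0.001, -0.001 and 0.012. Estimates lay above 0 for 14 members and below 0 for 18 in excitatory neurons (51.5% of all genes lay below 0), for 13 and 17 in inhibitory neurons (50.5%), and for 12 and 18 in oligodendrocytes (50.7%). The summed share of UMIs differed by at most 0.0168 percentage points between genotypes in any population, in endothelial cells and pericytes (0.146% ± 0.00721 in Control and 0.129% ± 0.00057 in CrT-KO; exact permutation p = 0.333, two-sided, the smallest that 2 against 2 libraries allow).

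**Figure D4:**
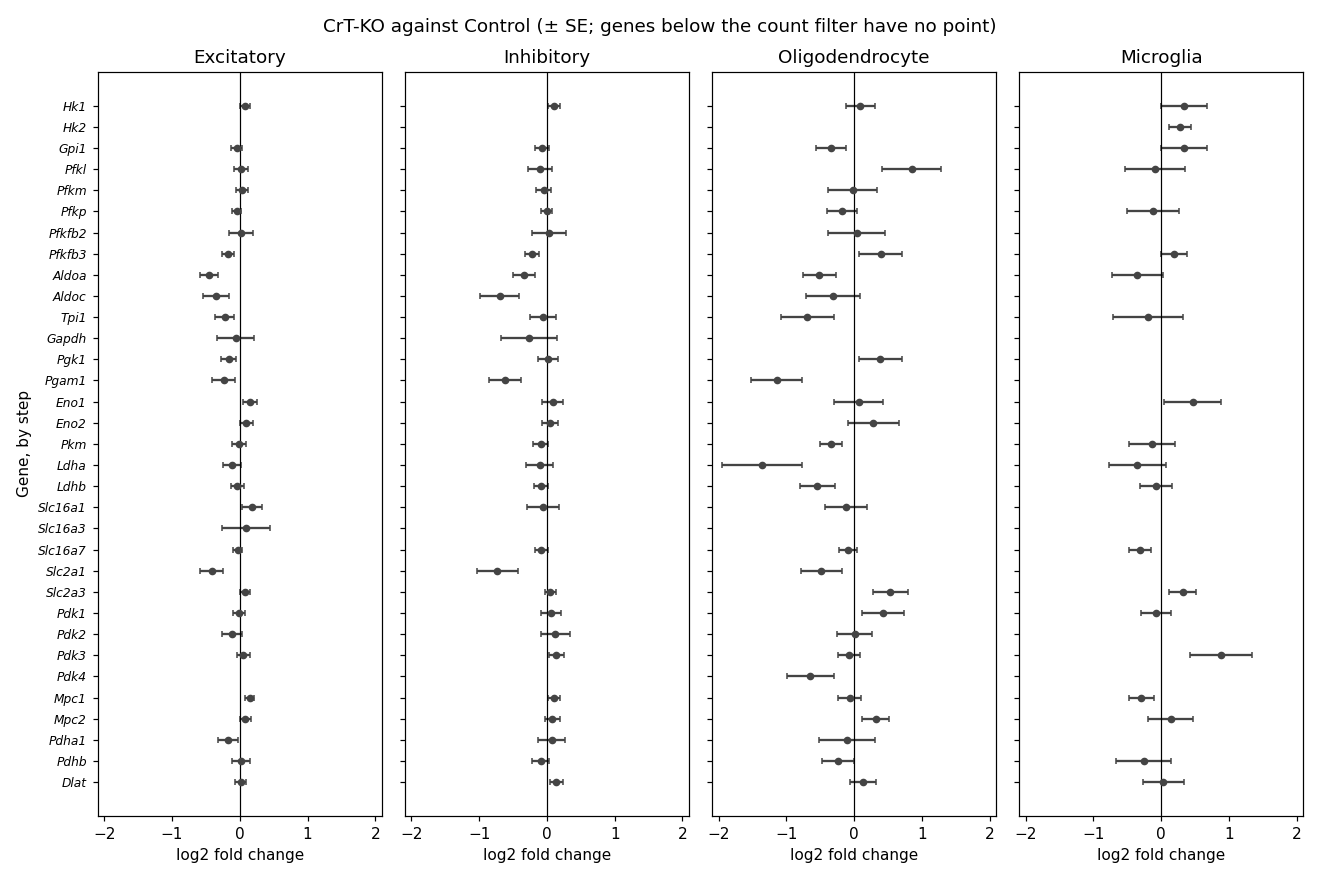
Points are log2 fold changes of CrT-KO against Control with their SE for each gene in 4 populations, by step from top to bottom. No point passed the adjusted threshold; Aldoa lies left of 0 in all 4 panels, and Aldoc and Slc2a1 in the 3 panels where they were tested.

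The member with the smallest unadjusted p was Aldoa. It had 13.9 and 11.6 CPM in the excitatory neurons of Control 1 and Control 2 and 9.89 and 8.04 CPM in those of CrT-KO 1 and CrT-KO 2 (443, 381, 388 and 252 UMIs). The genotypes did not overlap, and the log2 fold change was -0.45 ± 0.13 SE (unadjusted p = 0.00581, adjusted p = 0.325). Its estimates in the other populations tested were also below 0: -0.34 ± 0.16 in inhibitory neurons (15.6, 14.4, 13.6 and 9.67 CPM), -0.51 ± 0.25 in oligodendrocytes (23.1, 31.2, 20.5 and 18.5 CPM), -0.82 ± 0.47 in OPCs (47, 22.7, 18.9 and 19.8 CPM) and -0.36 ± 0.38 in microglia (27.2, 45.9, 36 and 22.1 CPM), where the genotypes overlapped and the sign turned without Control 2 (0.12). The populations share their 4 animals, so they are not separate evidence. Aldoa overlaps Fam57b on the opposite strand, and its second record had a mean of 0.70 CPM in Control and 0.52 CPM in CrT-KO excitatory neurons (log2 fold change -0.39 ± 0.37).

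Slc2a1 was the other member with an unadjusted p under 0.05 in excitatory neurons. Its excitatory values of 4.54 and 4.55 CPM in Control and 3.59 and 2.97 CPM in CrT-KO did not overlap (log2 fold change -0.42 ± 0.17, adjusted p = 0.515), nor did those of inhibitory neurons, 3.27 and 4.2 against 2.35 and 2.09 CPM (-0.73 ± 0.30, adjusted p = 0.874). In endothelial cells and pericytes, where the gene is most abundant, the genotypes overlapped, with 209 and 242 CPM in Control and 184 and 265 CPM in CrT-KO (-0.08 ± 0.37, adjusted p = 0.998); the sign there turned without Control 2 or CrT-KO 1. The 24 endothelial and pericyte markers summed to 38.1 and 38.5 CPM in Control and 40 and 40.7 CPM in CrT-KO excitatory nuclei. In inhibitory nuclei they summed to 103 and 109 CPM in Control and 89.4 and 119 CPM in CrT-KO. The part of such RNA in the Slc2a1 values was not tested.

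Aldoc and Pgam1 (phosphoglycerate mutase) were lower in the inhibitory neurons of both CrT-KO libraries. Aldoc had 4.69, 3.71, 2.92 and 2.09 CPM (-0.70 ± 0.28, adjusted p = 0.874), and Pgam1 8.49, 7.42, 6.55 and 3.39 CPM (-0.62 ± 0.24, adjusted p = 0.814). The 17 astrocyte markers in the same nuclei summed to 790 and 738 CPM in Control and 807 and 725 CPM in CrT-KO, and the part of such RNA in the Aldoc values was not tested. Pgam1 was the one member called when a library was left out: without CrT-KO 1 its log2 fold change was -1.18 (adjusted p = 0.0794). In oligodendrocytes it had 11.8, 14.3, 7.6 and 4.49 CPM (-1.14 ± 0.38, adjusted p = 0.459). Pgam1 was below the filter in microglia (16.7, 19.9, 8.18 and 9.2 CPM) and in OPCs, where the CrT-KO libraries were the higher ones (6.41, 5.67, 10.5 and 13.2 CPM, 15 UMIs in all).

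**Figure D5:**
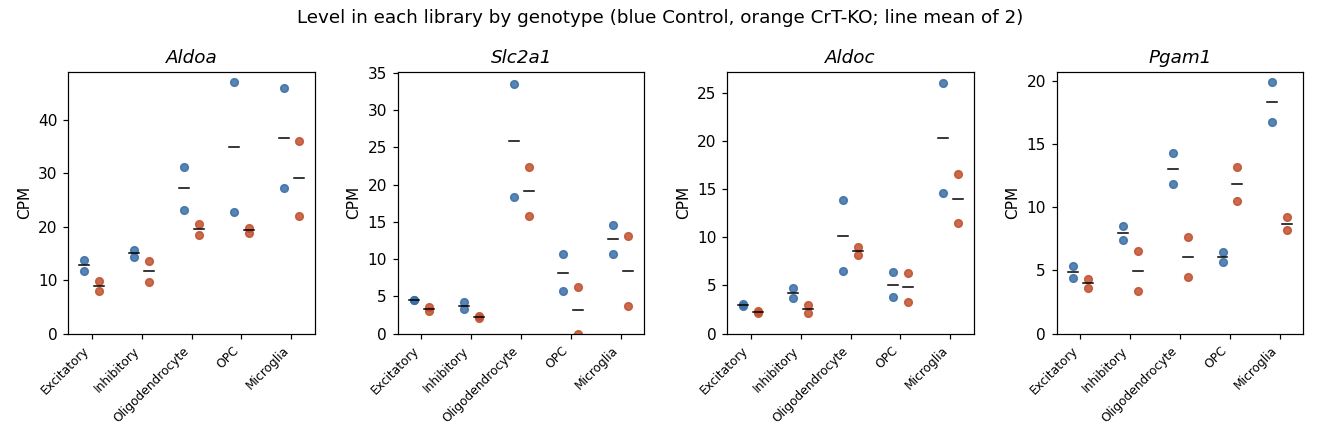
CPM of 4 genes in each library of 5 populations, with Control in blue, CrT-KO in orange and a line at the mean of 2 libraries. Aldoa has means of 12.8 CPM in Control and 8.96 CPM in CrT-KO excitatory neurons without overlap, while Pgam1 stands lower in oligodendrocytes and higher in OPCs of CrT-KO.

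In oligodendrocytes, the other members at the ends of the range were Ldha (7.69, 7.14, 5.26 and 0.56 CPM; -1.36 ± 0.60; a single UMI in CrT-KO 2), Tpi1, triose phosphate isomerase (10.1, 8.48, 6.43 and 5.05 CPM; -0.69 ± 0.39), and on the higher side Pfkl (5.33, 4.46, 6.43 and 11.2 CPM; 0.85 ± 0.44), Slc2a3 (13.6, 18.3, 24.6 and 23 CPM; 0.54 ± 0.26) and Pdk1 (10.1, 11.6, 16.4 and 13.5 CPM; 0.43 ± 0.31). The levels of Slc2a3 and Ldha in these nuclei lay within the free-RNA range. None of their adjusted p-values was below 0.716. Pkm, abundant there, had 73.4, 76.3, 67.3 and 52.1 CPM (-0.34 ± 0.16, adjusted p = 0.745).

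In microglia the ends of the range were Pdk3 (10.5, 18.4, 19.6 and 36.8 CPM; 0.89 ± 0.46), Eno1 (0.47 ± 0.42) and Hk1 (0.34 ± 0.34), and below 0 Aldoa, Ldha (-0.35 ± 0.42; the sign turned without Control 2, at 0.09) and Slc16a7 (230, 269, 177 and 228 CPM; -0.32 ± 0.17, adjusted p = 0.892). Hk2, their distinctive hexokinase, had 178 and 185 CPM in Control and 232 and 206 CPM in CrT-KO microglia, which did not overlap (0.27 ± 0.16, adjusted p = 0.912).

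The positive ends in neurons were small. In excitatory neurons they were Slc16a1 (7.54, 6.05, 7.62 and 7.24 CPM; 0.18 ± 0.14), Mpc1 (86.7, 88.6, 96.1 and 91.2 CPM; 0.15 ± 0.07, adjusted p = 0.588) and Eno1 (14.6, 14.5, 15.4 and 15.7 CPM; 0.14 ± 0.10), and in inhibitory neurons Pdk3, Dlat and Pdk2, each at most 0.14. The 1 member furthest each way was Pfkm (27.8, 18.9, 50.4 and 36.3 CPM; 0.94 ± 0.40, adjusted p = 0.91) and Aldoa in OPCs, and Eno1 (0.38 ± 0.54) and Hk1 (-0.58 ± 0.39) in astrocytes, where both overlapped between genotypes.

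Genes whose libraries did not overlap between genotypes were common. Overlap was judged on CPM, without the TMM factors used in the fits. Without those factors the median log2 fold change of all genes was -0.055 in excitatory and -0.017 in inhibitory neurons. In excitatory neurons 13 of 32 members were lower in both CrT-KO libraries (40.6%; 29.3% of all genes) and 2 higher (11.4%). In inhibitory neurons the counts were 8 lower (18.8%) and 4 higher (13.8%) of 30.

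Whether the genotype effect differed between populations was tested as an interaction over 13828 genes, of which 33 were members. No member was called in inhibitory neurons (0.137% of genes called), oligodendrocytes (0.6%) or microglia (0.0289%) against excitatory neurons. At an unadjusted p under 0.05 there were 0, 4 and 1 members (4.79%, 7.29% and 5.77% of all genes): Ldha, Pgam1, Pkm and Ldhb in oligodendrocytes and Mpc1 in microglia. The largest of these was Ldha, whose effect was 1.25 ± 0.53 log2 lower in oligodendrocytes than in excitatory neurons (adjusted p = 0.577), from 39 oligodendrocyte UMIs of Ldha at a level within the free-RNA range.

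A wider list of 65 genes of the same metabolism, such as glycogen, pentose phosphate and regulatory genes, gave the same count. None was called between genotypes in any population, with 53 tested in excitatory, 49 in inhibitory neurons, 36 in oligodendrocytes and 30 in microglia, and medians of -0.03, -0.08, 0.09 and 0.03. Against excitatory neurons 33 were tested, and 14 were called higher and 4 lower in astrocytes (17.3% and 21.8% of all genes), 10 and 7 in microglia (20.3% and 26.6%), 9 and 8 in oligodendrocytes (16.7% and 24.4%), 6 and 6 in endothelial cells and pericytes (15.6% and 19.9%), 4 and 5 in OPCs (14.3% and 15.9%) and 2 and 2 in inhibitory neurons (7% and 5.61%). The fructose transporter Slc2a5 (68.6 CPM against 0.14; log2 difference 8.07 ± 0.28) and Mlxipl, the glucose-responsive factor ChREBP (75.6 CPM against 0.19; 7.85 ± 0.26), were called higher in microglia, as Hk2 and Pfkfb3 were. Epas1, the hypoxia-inducible factor HIF-2 alpha, was called higher in endothelial cells and pericytes (376 CPM), astrocytes (172 CPM), OPCs (138 CPM) and oligodendrocytes (22.1 CPM) against 0.47 CPM in excitatory neurons. Txnip, an inhibitor of glucose uptake, was called higher in oligodendrocytes (5.65 CPM), in endothelial cells and pericytes (23.6 CPM) and in microglia (28.8 CPM) against 0.11. Called lower than in excitatory neurons were Slc2a13, a myo-inositol transporter (110, 148 and 146 CPM in oligodendrocytes, microglia and astrocytes against 661), Emb, a partner of monocarboxylate transporters, in oligodendrocytes and astrocytes (9.38 and 9.91 CPM against 45.2), and Pgm2l1, a glucose-1,6-bisphosphate synthase, in inhibitory neurons, OPCs, and endothelial cells and pericytes (42.6, 19.1 and 29.1 CPM against 82.9). Slc2a13 in oligodendrocytes and microglia and Emb in oligodendrocytes lay within the free-RNA range. Pgm2l1 in endothelial cells and pericytes lay below it. The other levels named in these lower calls lay above it.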

How the data were processed

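Sorted nuclei from the right cortex of 4 male mice were sequenced by the study on the 10x platform. The authors deposited raw UMI counts per gene and nucleus for each library. Per the submitters' processing notes and the study's methods, reads were processed with Cell Ranger 3.1.0 and Seurat 3.1.4 on GRCm38 (mm10), and whole gene bodies were counted, so unspliced RNA is included and overlapping genes can share reads. Whether counting used strand is not given in the sources used here. Each replicate is 1 animal.

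Doublets were marked with Scrublet in each library (1236 nuclei). Nuclei were clustered with scanpy 1.11.5 on 3000 variable genes that excluded the members and the wider list (Leiden resolution 1.0), and clusters were named from marker lists by thresholds set after the matrices were seen. The 2834 nuclei of unnamed clusters were left out. UMIs were summed per library and population. CPM relates a gene's UMIs to all UMIs of that population in that library. Genotypes were compared with edgeR 4.0.16 (quasi-likelihood test, TMM factors, filterByExpr, Benjamini-Hochberg adjustment over all genes tested), populations with the library as a block, and genotype effects between populations by an interaction. The SE is the log2 fold change divided by the square root of F. The fits were tested on simulated data. The members and lists were chosen with earlier results of these data known. Genes named were any called between genotypes, the 3 largest log2 fold changes each way in the 4 largest populations and 1 each way in the others, the 3 largest calls each way against excitatory neurons, the isozyme groups, and members at 0 UMIs. Other members were named after their values were seen. Alternatives were DESeq2 1.42.0, no TMM factor, no count filter, a replicate block, doublets kept, members among the clustering genes, nuclei with at least 500 UMIs, an adjusted p under 0.05, Control libraries alone, no minimum fold, and each library left out. Limits from 3 counts cover counting error only.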

Additional observations from a re-analysis of the deposited data

How the results depend on the processing

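Depth limited the small populations: the median SE of a member's genotype difference was 0.107 log2 in excitatory neurons, 0.134 in inhibitory neurons, 0.305 in oligodendrocytes, 0.34 in microglia and 0.383 in astrocytes, and 1 member could be tested in endothelial cells and pericytes. The marker lists of inhibitory neurons summed in OPCs to 77.8% of their level in inhibitory neurons. The causes of the changes below were not tested.

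Same-numbered libraries deviated together weakly (correlations of -0.0712 to 0.204 over genes), and nothing in the labels pairs the numbers. With a replicate block, 1 member was called between genotypes in excitatory neurons (Aldoa, -0.46, adjusted p = 0.0582 by edgeR) and 1 over all named nuclei, in place of 0, and the astrocyte median became -0.0528. In inhibitory neurons the count was 0 to 1 with a library left out (Pgam1, without CrT-KO 1).

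The median member fold change moved around 0. In excitatory neurons it was -0.0727 without TMM factors and -0.0462 to 0.0011 with a library left out. In inhibitory neurons it was 0.0006 with doublets kept and -0.0365 to 0.0008 by library, in oligodendrocytes -0.0332 and -0.1404 to -0.0248, in OPCs 0.0578 and -0.0713 to 0.0386 (0.1342 without a count filter), in microglia -0.0955 to 0.1908 by library, and in astrocytes -0.0735 with doublets kept, -0.0101 with DESeq2 and -0.0397 to 0.0883 by library.

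Without a minimum fold, members called higher and lower numbered 8 and 12 in inhibitory neurons (29.7% and 33.7% of all genes), 2 and 11 in OPCs (26.4% and 32.5%), 7 and 12 in microglia (37.1% and 40.3%), and 11 and 3 in PV against SST nuclei (17.5% and 17.2%), with 16 lower in oligodendrocytes (41.4%) and 8 lower in endothelial cells and pericytes (29.4%). Without TMM factors 7 were higher in microglia, and 10 higher and 3 lower in endothelial cells and pericytes. Among all genes the share of calls that were higher rose with it from 44% to 78.4% in endothelial cells and pericytes, 43.4% to 66.4% in microglia, 44.3% to 61.5% in astrocytes, 40.7% to 55.5% in oligodendrocytes, 47.3% to 61.6% in OPCs and 55.5% to 66.3% in inhibitory neurons. Without a count filter, 2 were lower in inhibitory neurons, 0 higher in OPCs, and 5 higher and 9 lower in endothelial cells and pericytes. With doublets kept, 0 were higher in OPCs, 3 lower in astrocytes and 6 higher in endothelial cells and pericytes. With members among the clustering genes, 2 were lower in inhibitory neurons, 5 higher in endothelial cells and pericytes and 1 lower in PV. From Control libraries alone 0 were higher in PV. With a library left out, the counts were 1 to 2 lower in inhibitory neurons, 0 to 1 higher in OPCs, and 1 to 2 higher and 0 to 1 lower in PV.

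The summed share's difference, in percentage points, was -0.000136 in OPCs with doublets kept. By library left out it was -0.0032 to 0.000253 in inhibitory neurons, -0.00509 to 0.00714 in OPCs, -0.0113 to 0.0142 in microglia, -0.0107 to 0.00888 in astrocytes, -0.00164 to 0.00322 in PV, -0.00706 to 0.00113 in VIP and -0.0037 to 0.000576 in MSN nuclei.

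With a library left out, genotype differences that turned sign ran from -0.7013 to 0.0038 for the second Aldoa record in excitatory neurons and from -0.0021 to 0.265 for Pdk2 in inhibitory neurons (both turned without Control 1), from -0.761 to 0.1176 for Aldoa and -0.6182 to 0.0897 for Ldha in microglia (without Control 2), and from -0.3528 to 0.2023 for Slc2a1 in endothelial cells and pericytes (without CrT-KO 1, and at 0.0609 without Control 2).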

Other observations

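Dlat, the acetyltransferase subunit of the pyruvate dehydrogenase complex, was the one member with an unadjusted p under 0.05 between genotypes in the LAMP5 and MSN subclasses. There 15 and 29 members were tested, and 5.03% and 6.01% of all genes had such a p. In LAMP5 nuclei it had 53.1 and 45.9 CPM in Control and 88.6 and 64.8 CPM in CrT-KO (a log2 difference of 0.67 with an SE of 0.26, and an adjusted p of 0.873 in edgeR). In MSN nuclei it had 32.9 and 40.6 CPM in Control and 44.8 and 54.6 CPM in CrT-KO (0.42 with an SE of 0.17, and an adjusted p of 0.758). The genotypes did not overlap in either subclass, and neither difference passed the adjusted threshold. The share of all genes without overlap was not counted for these subclasses. In PV, SST and VIP nuclei the log2 differences of Dlat were 0.05, 0.001 and -0.17. The subclasses share their 4 animals, so they are not separate evidence.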
